A study of Mus musculus with 12 samples.

Results

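The ovaries described here lacked *Stra8* in all cells and had been induced to delete *Smad4* in germ cells, and they were compared with control ovaries of the same embryonic stage, E14.5. Of the 12 arrays of the series, 6 belong to this comparison, 3 of double knockout (DKO) ovaries and 3 of control ovaries, chosen by genotype and sex alone, without any measured value. The DKO ovaries carried Smad4flox/flox, the tamoxifen-inducible MerCreMer transgene and *Stra8*-/-. The controls did not share 1 genotype: control ovary 1 was Smad4Flox/+ with StellaMerCreMer, control ovary 2 was Smad4Flox/+ without Cre and control ovary 3 was Smad4Flox/Flox without Cre, and each of them was *Stra8*+/-. In MerCreMer, Cre is held inactive until tamoxifen is given, here at E9.5 and E10.5, and it is expressed under the regulatory element of Stella (*Dppa3*), which is active in germ cells. The study describes the efficiency of this Cre as variable. Each array measured the RNA of whole gonads of mice of mixed background, germ cells and somatic cells together, so that fewer cells of a type and less RNA per cell cannot be told apart. The other 6 arrays, 3 of *Smad4 (Stella)* ovaries (Smad4flox/flox with MerCreMer, *Stra8*+/-) and 3 of control testes (Smad4Flox/+ with StellaMerCreMer, *Stra8*+/-), are given beside them where they show how a gene behaves.

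SMAD4 is the shared partner of the receptor-activated SMAD proteins, through which BMP, *Nodal* and activin signals reach their target genes. STRA8 is a protein of germ cells that is induced by retinoic acid at the entry into meiosis. In the fetal ovary germ cells normally switch off the pluripotency genes of primordial germ cells, turn on the machinery of meiotic recombination and synapsis and begin oogenesis. In the fetal testis they enter cell cycle arrest and turn on the piRNA pathway and de novo DNA methylation. The question of the comparison is how far the ovary departs from the female programme when both inputs are removed. The study had lists of genes specific to male and to female germ cells at E13.5, and most of what follows concerns the 17948 measured genes outside both lists.

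Values are relative log2 levels, the log2 of the spot intensity minus the log2 of the 75th percentile of its array, so that 0 is the 75th percentile of the array and a difference of 1 is a change of 2-fold. The 75th percentile of the intensity ran from 476 to 754.4 in control ovaries and from 533.5 to 966.9 in DKO ovaries, 58.82% to 70.53% and 60.38% to 70.41% of probes were well above background, and 0 spots were saturated. Arrays of a group correlated, over genes as points that are not independent, with a Pearson's r of 0.975 to 0.981 in control and 0.98 to 0.984 in DKO ovaries. Control ovary 1 was on slide 1 with the testes, control ovaries 2 and 3 and DKO ovaries 1 and 2 were on slide 2, and DKO ovary 3 was on slide 3 with the *Smad4 (Stella)* ovaries. With 3 arrays a group the precision of each value is limited. The labels do not say whether embryos of a group shared a litter, so that p-values measure only the spread between these arrays.

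The targeted genes were read first. *Stra8* was 6.71, 6.16 and 6.46 in control ovaries 1, 2 and 3 and 5.61, 5.28 and 5.38 in DKO ovaries 1, 2 and 3. The groups did not overlap, and *Stra8* fell by 1.02 on the log2 scale (SE 0.18, adjusted p = 0.00271, limma). Its only probe, on mm9 chromosome 6 between 34889231 and 34889290, thus still gave a strong signal in the *Stra8*-/- ovaries, and its mean was 6.34 in *Smad4 (Stella)* ovaries and -2.62 in testes. Whether this probe lies in the deleted part of the gene is not given in the sources used here, so the level is no check of the deletion. *Smad4* was 2.20 ± 0.19 in control and 2.08 ± 0.12 in DKO ovaries (SD, n = 3 each), a difference of -0.13 (SE 0.14, adjusted p = 0.563, limma) in the RNA of the whole gonad, in which somatic cells keep the gene. *Dppa3*, the gene whose element drives the Cre, was 4.11 in control ovary 1, which carries the transgene, 2.19 and 2.35 in control ovaries 2 and 3, and 5.43, 5.24 and 4.98 in the DKO ovaries. It rose by 2.33 (SE 0.43, adjusted p = 0.00334, limma), and the control ovary with Cre was the nearest to the DKO ovaries.

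A gene was called when its difference was at least 1.5-fold and its adjusted p, from limma with Benjamini-Hochberg adjustment over all 18665 genes, was under 0.05. In DKO ovaries 1253 genes, 6.71% of those tested, were called higher and 1482 genes, 7.94%, were called lower. Of 373 tested genes of the male germ cell list 226 were higher and 4 lower, with a median difference of 1.13, and of 344 tested genes of the female list 1 was higher and 294 lower, with a median of -1.51. These lists were drawn by the study from other arrays, but the study then read them on these samples. The largest measured differences in them were those of *Asb9*, *Egr4* and *Gtsf1l*, higher by 7.41, 6.65 and 5.75, and of *Reg2*, *Lypd4* and *Terb1*, lower with differences of -6.12, -6.07 and -5.81. *Egr4* was well above background on all 6 arrays, whereas *Asb9* was so on 2 and *Gtsf1l* on 1 of the 3 control arrays, and *Reg2* on 1 and *Lypd4* and *Terb1* on 2 of the 3 DKO arrays, so that the sizes of these 5 rest partly on signal near background.

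Outside both lists 1026 genes were higher, 5.72% of 17948, and 1184 were lower, 6.6%, so that most called genes were not germ-cell-specific genes of the study. The median difference over these 17948 genes was 0.004. Among the 1026 higher genes 412 changed by at least 2-fold, 114 by at least 4-fold and 29 by at least 8-fold, with a median of 0.89, and among the 1184 lower genes the counts were 495, 99 and 33, with a median of -0.92. The 3 DKO arrays lay wholly above or below the 3 control arrays for 996 of the higher and 1161 of the lower genes, where 32.9% of all genes tested did so in either direction. At the edge of the call *Trim6*, with a difference of 1.11 and an adjusted p of 0.0497 (limma), was just inside. The share of higher among called genes was 46.4%, but it was 61.3% in the deposited table without scaling and 36.3% with the methods' t-test after Benjamini-Hochberg adjustment. On slide 2 alone, which holds 2 arrays of each group, 364 genes were higher and 415 lower.

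**Figure D1:**
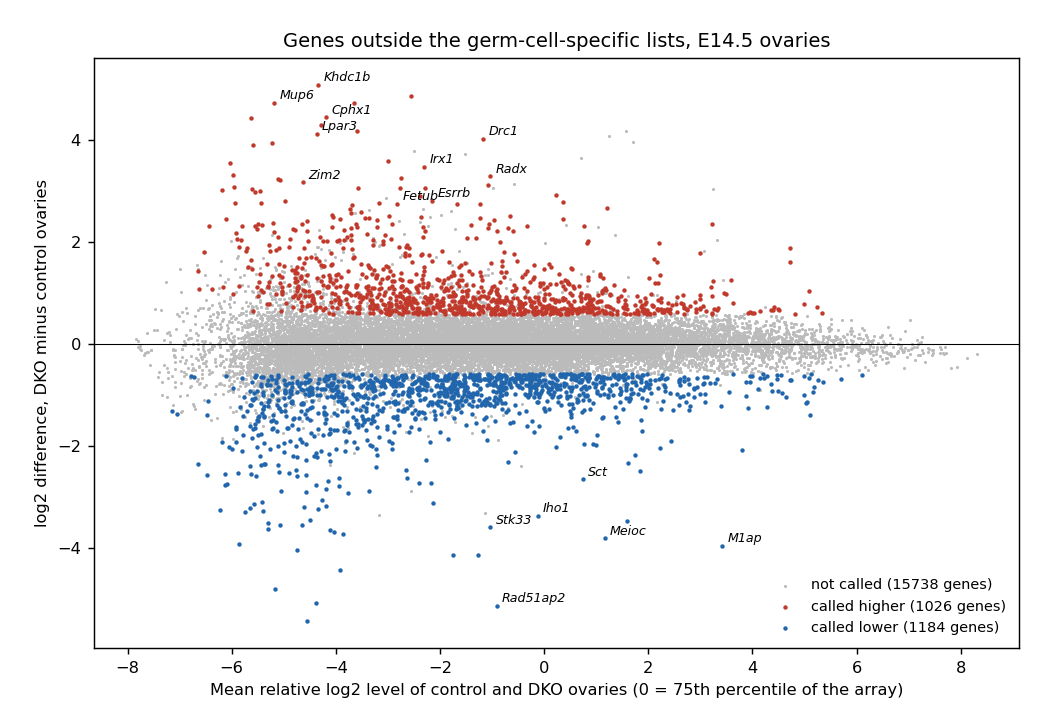
Each point is 1 of the 17948 genes outside the germ-cell-specific lists, with the mean relative log2 level of the 6 arrays on the horizontal axis and the log2 difference of DKO minus control ovaries on the vertical axis; red points are the 1026 genes called higher, blue points the 1184 called lower. The largest falls among well detected genes, from *Rad51ap2* at -5.14 to *Sct* at -2.66, are labelled at the bottom, and the rises reach 4.03 for *Drc1* and 5.08 for *Khdc1b*, whose control level was at background.

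Genes of meiotic prophase were among the largest falls. Among called genes outside the lists that were well above background on all 6 arrays and did not overlap between groups, the 7 with gene names among the 12 largest falls were *Rad51ap2*, *M1ap*, *Meioc*, *Stk33*, *Iho1*, *1700028E10Rik* and *Sct*. *Rad51ap2*, a gene of meiotic recombination, was 1.53, 1.76 and 1.68 in control ovaries 1 to 3, against -4.02, -3.04 and -3.39 in DKO ovaries 1 to 3. It was 35.3-fold lower (log2 difference -5.14, SE 0.24, adjusted p = 1.6e-06, limma). *M1ap*, a meiosis gene named for the arrest seen in its absence, was 5.50, 5.36 and 5.34 in control and 1.69, 1.72 and 0.89 in DKO ovaries, 15.6-fold lower (-3.96, SE 0.23, adjusted p = 5.09e-06, limma), with its probe on mm9 chromosome 6 between 82980023 and 82980082. For both genes every DKO array was far below every control array. The mean of *Rad51ap2* was 1.02 in *Smad4 (Stella)* ovaries and -3.15 in testes, and that of *M1ap* 4.88 and -0.57.

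*Meioc*, needed to keep germ cells in an extended meiotic prophase, was 3.17, 3.06 and 2.98 in control ovaries. Its DKO levels were the most uneven of the named falls, at -0.95, -1.59 and 0.29, and the difference was -3.82 (SE 0.39, adjusted p = 0.000104, limma). Its partner *Ythdc2*, an RNA helicase that acts with MEIOC, fell by 1.37 (SE 0.11, adjusted p = 2.69e-05, limma). *Iho1*, which organises the sites of meiotic DNA breaks on the chromosome axis, was 1.64, 1.59 and 1.45 against -1.77, -1.79 and -1.88, with a difference of -3.37 (SE 0.15, adjusted p = 1.21e-06, limma). Its probe lies on mm9 chromosome 9 between 108306130 and 108306189, and its arrays lay close together within each group. *Stk33*, a serine/threonine kinase gene, was 0.73, 0.89 and 0.67 against -2.64, -3.15 and -2.72, a difference of -3.60 (SE 0.20). Each of these genes was also lower in DKO than in *Smad4 (Stella)* ovaries, by 4.50 for *Rad51ap2*, 3.44 for *M1ap*, 3.19 for *Meioc*, 2.76 for *Iho1* and 3.05 for *Stk33*, in a contrast in which 8.42% of all genes were called. That contrast uses the same DKO arrays by which the genes were chosen, so these differences are not a separate test of the falls.

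The list of meiotic prophase genes had 53 tested members, of which 41 were lower and 0 higher in DKO ovaries, with a median of -1.49. Many of them are in the study's female list. The 25 members outside it held 14 lower and 0 higher genes with a median of -0.69, against 6.6% of genes lower outside the lists. *Rad51ap2*, *M1ap*, *Meioc* and *Ythdc2* are 4 of the 14. Of the others *Cntd1*, a cyclin-like protein of the crossover pathway, fell by 2.0, *Ccnb1ip1* and *Rnf212*, ubiquitin or SUMO ligase genes of crossover designation, by 1.49 and 0.90, *Tex15*, a testis and germ cell gene of recombination, by 1.45, *Mei4* and *Rec114*, partners in break formation, by 1.15 and 0.64, *Slc25a31*, a mitochondrial ADP/ATP carrier of germ cells, by 1.04, and *Tex11* by 0.95. *Cpeb1*, a regulator of translation in oocytes, fell by 0.69. The meiotic cohesin gene *Rec8*, by contrast, differed by 0.13 (adjusted p = 0.814, limma), and *Mnd1* and *Trip13*, with differences of 0.22 and 0.46, did not pass either. The summed level of the whole list, where 1 is the 75th percentile of an array, was 606 to 670 in control ovaries, 423 to 538 in *Smad4 (Stella)* ovaries, 205 to 272 in DKO ovaries and 122 to 138 in testes, and these ranges did not overlap. On the 3 DKO arrays the median difference of the 25 genes from the control mean was -0.53, -0.75 and -0.62.

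*Sct*, which encodes the hormone secretin, fell although its level was higher in testes. It was 2.40, 1.94 and 1.88 in control ovaries and -0.21, -1.11 and -0.44 in DKO ovaries, with a difference of -2.66 (SE 0.23, adjusted p = 4.18e-05, limma), while its mean was 0.98 in *Smad4 (Stella)* ovaries and 4.70 in testes. Of the oocyte genes outside the lists, *Taf4b*, a subunit of the transcription factor TFIID in germ cells, fell by 1.47 (SE 0.13, adjusted p = 3.54e-05, limma), and *Npm2*, a maternal histone chaperone, by 0.66 (SE 0.17, adjusted p = 0.0203, limma), a fall that was lost with normexp background correction, which gave 0.16, and whose call was lost in 7 other settings, among them those without control ovary 1, control ovary 2 or DKO ovary 2. *Nobox*, a homeobox gene of oocytes, differed by -0.89 without passing (adjusted p = 0.0738, limma). Of 20 tested oocyte genes 6 were higher and 4 lower, so that this list did not move together. Over all genes 6.71% were higher and 7.94% lower. Among the members in the study's lists *Figla*, a transcription factor of early oocytes, fell by 2.19, and *Nlrp14*, a gene of the oocyte cytoplasm, rose by 4.18 from -5.32, -3.96 and -3.45 to -0.25, 0.02 and 0.05.

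Among the 12 largest rises were those of *Drc1*, *Irx1*, *Radx*, *Dmrt1*, *Phf11a*, *Lncenc1*, *Grhl2*, *Esrrb* and *Fetub*. *Drc1*, which encodes a regulator of ciliary and flagellar dynein, was -3.72, -3.08 and -2.77 in control ovaries and 2.03, 0.57 and -0.08 in DKO ovaries. It was 16.4-fold higher (4.03, SE 0.45, adjusted p = 0.000176, limma), with the widest spread between DKO arrays of these genes, and its mean was -2.76 in *Smad4 (Stella)* ovaries and 3.09 in testes. *Radx*, an X-linked gene whose product protects replication forks, was -2.60, -2.93 and -2.53 against 1.26, 0.10 and 0.46 (3.29, SE 0.30, adjusted p = 5.24e-05, limma), with its probe on mm9 chromosome X between 136088926 and 136088985. *Phf11a*, a PHD finger gene, was -2.02, -2.99 and -2.90 against 0.90, 0.86 and -0.33, a difference of 3.11 (SE 0.45). All 9 genes were also called higher in DKO than in *Smad4 (Stella)* ovaries, in a contrast that shares the DKO arrays by which they were chosen.

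*Dmrt1* is a transcription factor of gonads, present in Sertoli cells and germ cells and known for holding back pluripotency and meiotic genes in germ cells. It was -3.74, -4.61 and -4.79 in control ovaries and -1.52, -0.80 and -1.02 in DKO ovaries, with a difference of 3.27 (SE 0.41, adjusted p = 0.000339, limma). Its mean of -1.11 in DKO ovaries lay above the -2.72 of *Smad4 (Stella)* ovaries and the -3.17 of control testes, and its probe lies on mm9 chromosome 19 between 25677951 and 25678010. *Esrrb*, a nuclear receptor of naive pluripotent cells and early germ cells, was -2.53, -4.36 and -3.79 against -0.61, -0.25 and -1.38 (2.81, SE 0.48, adjusted p = 0.00193, limma), and *Lncenc1*, a long noncoding RNA first described in naive embryonic stem cells, was -4.14, -4.61 and -4.15 against -0.83, -1.19 and -1.69 (3.06, SE 0.37). Control ovary 1 was the only control with Cre and the only one on slide 1, so that genotype, slide and embryo cannot be told apart in it. Of the named rises it was the highest control array for *Dmrt1*, *Phf11a*, *Esrrb*, *Fetub* and, narrowly, *Lncenc1*, but not for *Drc1*, *Irx1*, *Radx* or *Grhl2*.

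Most of these genes were lower in testes than in DKO ovaries, a difference that was not tested. The testis means of *Irx1*, *Radx*, *Dmrt1*, *Phf11a*, *Lncenc1* and *Esrrb* were -4.58, -1.88, -3.17, -3.31, -2.65 and -2.38, and the DKO means -0.56, 0.61, -1.11, 0.48, -1.24 and -0.75. For *Fetub*, a secreted protease inhibitor, the testis mean was above the DKO mean, -0.92 and -1.44, and for *Grhl2*, an epithelial transcription factor, it was close, -1.11 and -0.92. Probes of some of these genes disagreed. Further dim probes of *Irx1* and *Grhl2*, left out of the fit, differed by -0.97 for *Irx1* and by -0.23 and -0.39 for *Grhl2*. With those dim probes averaged in, neither *Irx1* nor *Grhl2* was called, and with the methods' t-test after adjustment *Drc1*, *Phf11a*, *Esrrb* and *Fetub* were not.

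**Figure D2:**
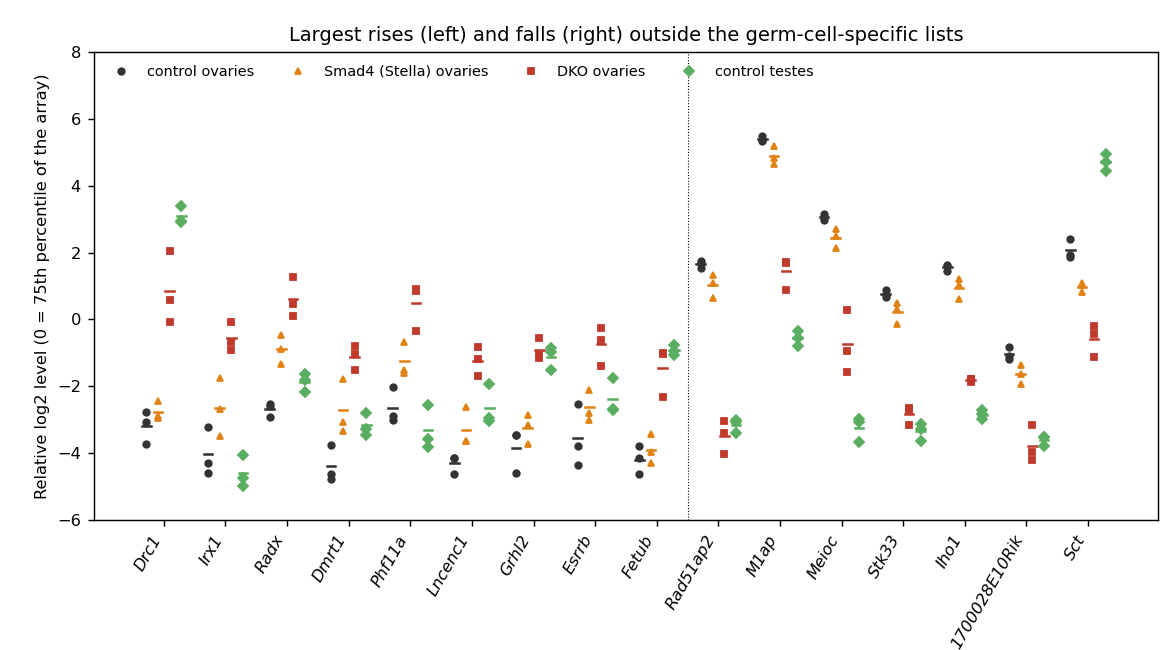
Relative log2 levels (vertical axis, 0 = 75th percentile of the array) of the named genes with the largest rises and, right of the dotted line, falls outside the germ-cell-specific lists; each point is 1 array, short lines are group means, and the 4 groups have 3 arrays each. DKO arrays lie above all control arrays for the 9 genes on the left and below them for the 7 genes on the right. The rule that chose the genes required this. The testes lie near the DKO ovaries for *Rad51ap2* (-3.15 and -3.48) but above both ovary groups for *Sct* (4.70).

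A further 56 higher genes were not well above background on any control array, and 83 lower genes on no DKO array, so that only a bound can be given for them, the mean of the measured group over that of the other group set at the lowest detected signal of its arrays, or at its own signal if that is higher. *Khdc1b*, of the KH domain family expressed in oocytes and early embryos, was at least 13.9-fold higher in DKO ovaries, at -1.17, -1.15 and -3.05. *Cphx1*, a homeobox gene of the early embryo, was at least 12.3-fold higher at -1.65, -1.84 and -2.37, and *Lpar3*, a lysophosphatidic acid receptor, at least 9.72-fold higher at -1.93, -1.96 and -3.02. In each of them DKO ovary 3 was the lowest of the 3. *Mup6*, a major urinary protein gene of a family of near-identical copies that the probe may not separate, was at least 6.82-fold higher, and the imprinted zinc finger gene *Zim2* at least 5.81-fold. The adjusted p of these 5 genes was 0.000418, 5.24e-05, 6.61e-05, 0.000351 and 0.000195 (limma), in that order. These values belong to the measured difference from control signal near background, and not to the bounds. Among the 5 largest bounds in the other direction only *Gm7972*, a predicted gene, has a name, at least 11.1-fold lower from -2.32, -2.03 and -2.21 in control ovaries.

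Of 26 tested genes of pluripotency and primordial germ cells 17 were higher and 0 lower, with a median of 1.23. Of the 14 outside the study's lists 7 were higher and 0 lower, with a median of 0.63, against 5.72% of genes higher outside the lists. They were *Esrrb*, *Kit*, the Krüppel-like factor genes *Klf2*, *Klf4* and *Klf5*, *Nr5a2* and *Zfp42*. *Kit*, the receptor for stem cell factor that primordial germ cells need for survival, was -0.22, -0.95 and -0.87 in control and 0.36, 0.55 and 0.64 in DKO ovaries, a difference of 1.20 (SE 0.20, adjusted p = 0.00164, limma). *Klf5* was -1.73, -1.77 and -1.97 against -0.58, -0.60 and -0.50, a difference of 1.26 (SE 0.17, adjusted p = 0.000488, limma), and *Nr5a2*, a nuclear receptor that activates *Pou5f1*, was -2.28, -2.30 and -2.29 against -1.43, -1.29 and -1.35, a difference of 0.94 (SE 0.13). The spread of *Klf5* and *Nr5a2* within each group was small beside the difference. The control arrays of *Kit* were wider apart (SD 0.40), and its call was lost with the methods' t-test after adjustment. *Klf4* rose by 0.90, *Zfp42*, known as Rex1, by 1.31 and *Klf2*, whose call was lost without control ovary 1, by 0.63, whereas *Tet1*, *Tet2*, *Tbx3* and *Fut4* differed by 0.18, -0.29, 0.22 and 0.10 without passing. Among the members that are in the study's male list *Dppa4*, *Utf1* and *Pou5f1* rose by 3.38, 2.61 and 2.32. Control ovary 1 was the highest control array for *Kit*, *Dppa4*, *Utf1* and, narrowly, *Klf5* and *Nr5a2*, but not for *Klf2* or *Klf4*. The summed level of the list was 33 to 42.6 in control, 62 to 84.6 in DKO and 52.3 to 70.7 in testis arrays. With the methods' t-test after adjustment 2 of the 26 were called.

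Genes shared by germ cells of both sexes did not move together. Of 23 tested members 7 were higher and 2 lower, with a median of 0.14, where 6.71% of all genes were higher and 7.94% lower. The general germ cell genes *Ddx4*, *Dazl* and *Mael* differed by 0.14, -0.08 and 0.03 without passing. The list's summed level was 100 to 130 in control and 133 to 168 in DKO ovaries. Bright genes weigh most in such a sum, and it includes *Dppa3*, whose rise on every DKO array is given above. The sum without *Dppa3* was not taken, so the separation is no measure of germ cell number. Against this background the genes of male germ cell differentiation and the piRNA pathway had 14 of 27 members higher and 2 lower, but 15 of the 27 are in the study's lists. Of the other 12 members 4 were higher and 1 lower, with a median of 0.09, where 5.72% of genes were higher outside the lists. Outside them *Tdrd9*, an RNA helicase of transposon silencing, was -0.96, -1.0 and -0.67 in control and 1.71, 1.05 and 2.0 in DKO ovaries (2.46, SE 0.23, adjusted p = 6.55e-05, limma). Its partner in piRNA bodies *Tdrd5*, from -3.10, -4.21 and -3.51 to -0.87, -0.87 and -1.60, rose by 2.49 (SE 0.34), and the means of both in testes, 2.13 and -0.38, were above those in DKO ovaries. The nuclease gene of piRNA biogenesis *Pld6* rose by 1.19 and the DNA methyltransferase gene *Dnmt3b* by 0.76. *Gpat2*, an acyltransferase gene tied to the piRNA pathway, went the other way, from 5.83, 5.86 and 5.67 to 4.54, 4.30 and 4.37 (-1.39, SE 0.17, adjusted p = 0.000287, limma), close to its testis mean of 4.22.

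The *Nodal* pathway, which carries an early male signal in fetal germ cells, had 5 of 19 members higher and 0 lower. Of the 16 outside the study's lists 3 were higher, with a median of 0.09, where 5.72% of genes outside the lists were higher. The ligand gene *Nodal*, which is in the study's male list, was -4.56, -4.22 and -3.86 against -1.53, -0.84 and -2.46, a difference of 2.60 (SE 0.40, adjusted p = 0.0011, limma), and its mean in *Smad4 (Stella)* ovaries, -4.36, lay within the control range. *Lefty1* was -7.36, -4.97 and -5.73 against -1.59, -0.72 and -1.55 (4.73, SE 0.69, adjusted p = 0.000845, limma) and was well above background on 1 of the 3 control arrays, with a mean of -2.94 in *Smad4 (Stella)* ovaries. The convertase gene *Pcsk6* and the SMAD corepressor gene *Skil* rose by 0.62 and 0.90, and the call of *Pcsk6* was lost without control ovary 2 or control ovary 3. *Lefty2*, a further inhibitor, differed by 1.22 near background and was not called (adjusted p = 0.0759, limma).

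Of 18 tested targets of BMP signalling 3 were lower and 0 higher, against 6.6% of genes lower outside the lists. *Msx2*, a homeobox target of BMP, was -0.50, -0.73 and -0.52 in control and -1.65, -1.96 and -1.51 in DKO ovaries (-1.12, SE 0.16, adjusted p = 0.000698, limma), and *Msx1* and the BMP-binding protein gene *Bmper* fell by 0.89 and 0.82. Of 18 alternative settings *Msx2* lost its call in 2, *Msx1* in 10 and *Bmper* in 11, among them for *Msx1* those without control ovary 2, DKO ovary 1 or DKO ovary 3 and for *Bmper* those without control ovary 2, control ovary 3 or DKO ovary 2. The *Smad4 (Stella)* means of *Msx2* and *Msx1*, -1.28 and -2.78, were near those of the DKO ovaries, -1.71 and -2.77, and neither gene passed the test between the mutants (adjusted p = 0.117 and 0.981, limma). The general BMP targets *Id1*, *Id2*, *Id3* and *Smad6* differed by -0.58, -0.34, -0.60 and -0.05 without passing. With the slide as a block 7 members were lower, with normexp correction or the deposited intensities there were 0, without control ovary 2 there was 1, and without DKO ovary 3 there were 5. In the retinoic acid pathway 2 of 20 members were higher and 2 lower, where 6.71% of all genes were higher and 7.94% lower. The receptor gene *Rxra* rose by 0.70, while *Stra8* and *Rdh10*, which makes retinaldehyde, fell. The fall of *Rdh10* was 0.59, a call lost without control ovary 1, control ovary 2 or DKO ovary 2.

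Genes of antigen presentation by MHC class I split into both directions, with 5 of 30 higher and 9 lower. Over all genes 6.71% were higher and 7.94% lower. H2-D1, a classical class I heavy chain, was 2.65, 3.12 and 2.72 in control ovaries and 0.63, 0.65 and 0.66 in DKO ovaries, 4.54-fold lower (-2.18, SE 0.14, adjusted p = 7.8e-06, limma). Both of its probes fell, by 2.10 and 2.26, and its mean was 2.65 in *Smad4 (Stella)* ovaries and 0.78 in testes. The other 8 lower members, among them H2-Q4 (-2.28) and the class II gene *H2-Ab1* (-3.17), which does not serve class I, are in the study's female list. H2-Q8 and H2-T22, also class I genes, rose by 0.82 and 0.60, the latter a call lost without control ovary 1, control ovary 2 or DKO ovary 1, and neither passed the test between DKO and *Smad4 (Stella)* ovaries (adjusted p = 0.92 and 0.828, limma). Class I genes are near-identical copies, and which copy a probe reads is uncertain. Every alternative setting but normexp correction, which left 6, gave 9 or 10 lower members. The 5 higher members were less stable, with 0 called in the deposited table and 3 without control ovary 1, control ovary 2 or DKO ovary 1. Interferon response genes, which include inducers of class I, had 0 of 29 higher and 2 lower, *Ifit1* by 2.17 and *Usp18* by 1.71, where 7.94% of all genes were lower. *Ifit1* was well above background on 1 and *Usp18* on 2 of the 3 DKO arrays, and both calls were lost in 6 of 17 alternative settings, among them the slide as a block and slide 2 alone. *Ddx58*, an RNA sensor, differed by 0.54, less than a 1.5-fold change.

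Genes of the cell cycle and growth were called in both directions, where 6.71% of all genes tested were higher and 7.94% lower. *Cdk6*, a kinase of the G1 phase, was -1.13, -1.06 and -1.01 in control and 0.22, 0.36 and 0.37 in DKO ovaries (1.38, SE 0.15, adjusted p = 0.000155, limma), and *Cdk4* rose by 0.63. The call of *Cdk4* was lost without DKO ovary 2. Of 54 DNA replication genes 5 were higher and 7 lower, and the largest falls among them, of the cyclin gene *Ccne2* (-2.45) and the histone chaperone gene *Asf1b* (-1.92), are of the study's female list. Outside it *Gins3*, a subunit of the replicative helicase, was 1.47, 1.32 and 1.31 against -0.05, -0.16 and -0.56 (-1.63, SE 0.14, adjusted p = 4.18e-05, limma), the origin recognition gene *Orc1* and the ligase gene *Lig1* fell by 0.85 and 0.70, and the polymerase gene *Pola1* rose by 0.78. Of 44 mitosis genes 6 were higher and 3 lower. *Kif23*, a kinesin of cytokinesis, was 1.4, 1.16 and 1.06 against 0.13, -0.01 and 0.12 (-1.13, SE 0.10, adjusted p = 5.43e-05, limma) and the checkpoint kinase gene *Bub1* fell by 0.75, while the kinase gene *Aurkb* and the securin gene *Pttg1* rose by 0.89 and 0.60, a call lost for *Pttg1* without control ovary 2 or DKO ovary 1. Neither list had a median beyond 0.06.

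Ribosome biogenesis genes had 22 of 85 members higher and 3 lower, with a median of 0.34 against 0.003 over all genes. Outside the study's lists the count was 17 higher and 2 lower of 77, where 5.72% of genes outside the lists were higher and 6.6% lower. *Bop1*, needed for the large subunit, was 1.46, 1.30 and 1.21 in control and 2.28, 2.31 and 2.18 in DKO ovaries (0.93, SE 0.10, adjusted p = 0.000165, limma), *Ubtf*, the factor that opens ribosomal DNA to polymerase I, was 2.32, 2.17 and 2.19 against 2.92, 3.10 and 3.09 (0.81, SE 0.11), and *Mybbp1a* and *Nhp2*, nucleolar proteins, rose by 1.33 and 0.98. *Ltv1* and *Naf1*, assembly factors, fell by 1.19 and 1.06. The rises were small: 3 of the 22 members passed at 2-fold, and 6 were called in the deposited table without scaling. p53 response and apoptosis genes had 8 of 36 higher and 0 lower, where 6.71% of all genes were higher. *Bax*, an effector of mitochondrial cell death, was 0.99, 0.60 and 0.74 against 1.75, 1.77 and 1.70 (0.96, SE 0.16, adjusted p = 0.0016, limma), the kinase gene *Plk3* rose by 0.90 and the caspase gene *Casp9* by 1.19, while the p53 targets *Cdkn1a* and *Mdm2* differed by 0.41 and 0.14 without passing. Without control ovary 1, control ovary 2, DKO ovary 1 or DKO ovary 2 only 5 members were called higher, and 2 with the deposited intensities.

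Over all genes tested 6.71% were higher and 7.94% lower, beside which the counts of the following lists stand. In the list of glycolysis and serine metabolism 4 of 32 were higher and 0 lower, *Shmt1*, *Shmt2*, *Phgdh* and *Slc2a3*, a glucose transporter gene (0.59). The call of *Slc2a3* was lost in 11 of 18 alternative settings. Among them were those without control ovary 2, control ovary 3, DKO ovary 1 or DKO ovary 2. *Shmt1*, which passes a carbon unit from serine to folate in the cytosol, was -1.26, -1.85 and -1.93 in control and 0.30, 0.08 and 0.02 in DKO ovaries (1.82, SE 0.26, adjusted p = 0.000811, limma). Its mitochondrial counterpart *Shmt2* rose by 0.68 and *Phgdh*, the entry to serine synthesis, by 0.64, a call lost without control ovary 2, and *Gldc*, of the glycine cleavage system, differed by 0.95 without passing (adjusted p = 0.0602, limma). Of 21 FGF and ERK feedback genes the phosphatase gene *Dusp4* rose by 2.09 (SE 0.32, adjusted p = 0.00105, limma), from -1.88, -2.86 and -2.29 to -0.72, 0.04 and -0.09, and *Fos* fell by 0.80, whereas the feedback genes *Dusp6* and *Egr1*, with differences of 0.43 and 0.53, did not reach 1.5-fold. Of 35 epithelial adhesion genes 8 were higher and 2 lower. Of the 27 outside the study's lists 3 were higher and 1 lower, with a median of -0.02, where 5.72% of genes outside the lists were higher. Outside the study's lists the tight junction genes *Ocln* and *Marveld2* rose by 1.24 and 0.68 together with *Grhl2*, and *Ap1m2*, an epithelial sorting adaptor, fell by 1.05, a fall that normexp correction turned to 0.05 and whose call was lost in 11 other settings of 18, among them those without control ovary 2, control ovary 3 or any 1 DKO array. The call of *Marveld2* was lost without control ovary 2, control ovary 3 or DKO ovary 1. Among 24 immediate early and stress genes 3 were higher, with *Nr4a1* and *Dusp1* up by 1.15 and 0.67, and *Fos* was lower. The call of *Fos* was lost without control ovary 1, control ovary 3, DKO ovary 2 or DKO ovary 3, and that of *Dusp1* without control ovary 2.

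**Figure D3:**
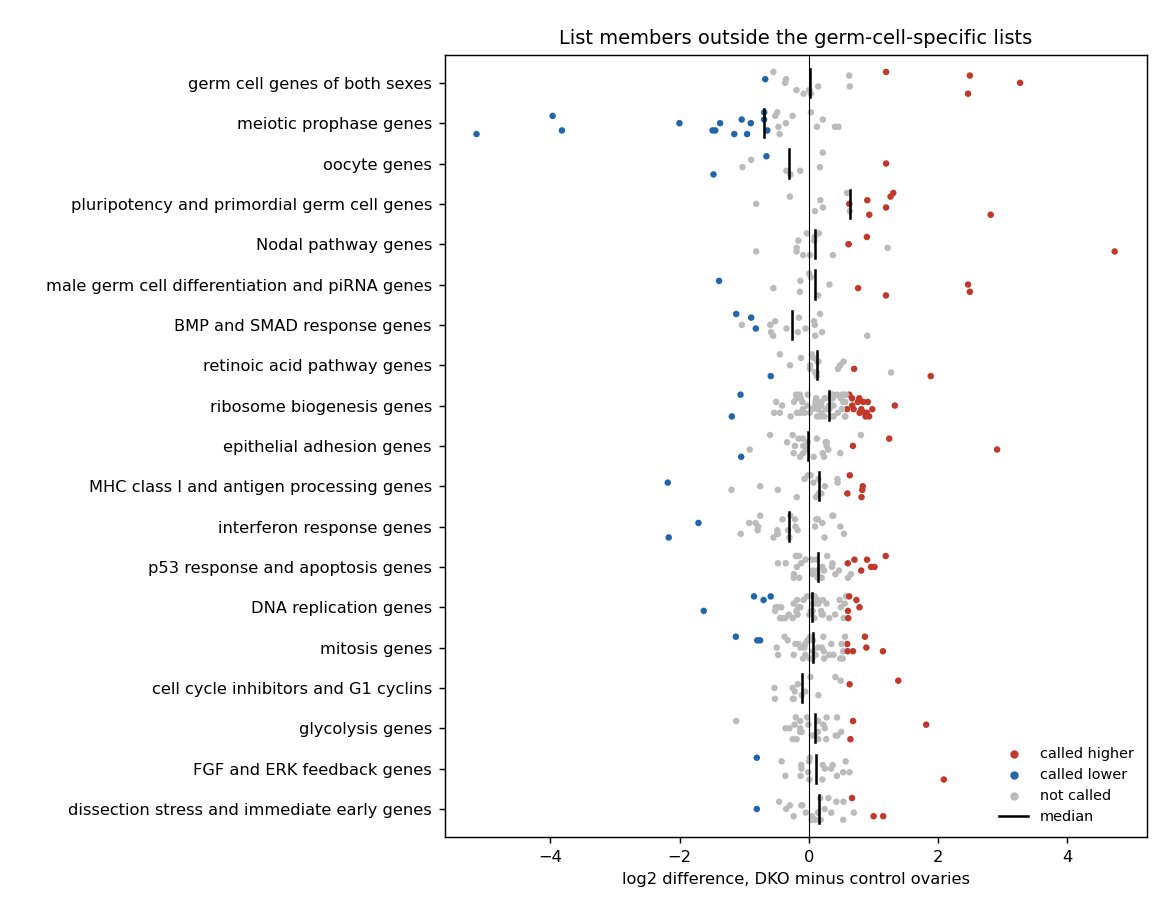
Each point is a member of a gene list that is outside the study's germ-cell-specific lists, placed by its log2 difference of DKO minus control ovaries on the horizontal axis; red was called higher, blue called lower, grey not called, the short black line is the median, and the small vertical shifts only separate points. Meiotic prophase genes lie to the left with a median of -0.69, pluripotency genes to the right with 0.63, and most other lists are centred near 0 with single genes far out.

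The promoters of the called genes were then read for short motifs, in windows from 250 bases before to 50 after each RefSeq start (build GRCm38.p6). Windows were found for 695 of the 1026 higher and 744 of the 1184 lower genes. CNCCTCAG is the sequence type that has been tied to STRA8 binding, CACGTG is the E-box of the MYC and MAX family, to which MGA, a repressor of meiotic genes, belongs, and GTCTAGAC is the palindrome to which SMAD MH1 domains bind. Each was searched on both strands. The sequences show where these letters stand in 4 named genes that fell and hold the first motif and 4 that rose and hold the E-box, as stretches of 100 bases upstream of the start around the match nearest to it, 5′ to 3′ on the strand of the gene, with the matches of the motif a gene is shown for, on either strand, in capitals. The *Radx* stretch also holds a match of the first motif, left in lower case. *M1ap* lies at chr6:82946765-82946864 (+), *Gpat2* at chr2:127425092-127425191 (+), *Kif23* at chr9:61946860-61946959 (-), H2-D1 at chr17:35262890-35262989 (+), *Radx* at chrX:139480193-139480292 (+), *Tdrd9* at chr12:111971418-111971517 (+), *Cdk4* at chr10:127063435-127063534 (+) and *Cdk6* at chr5:3343643-3343742 (+).
M1ap: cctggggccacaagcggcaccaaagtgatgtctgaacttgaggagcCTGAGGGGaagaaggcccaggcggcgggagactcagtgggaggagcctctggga
Gpat2: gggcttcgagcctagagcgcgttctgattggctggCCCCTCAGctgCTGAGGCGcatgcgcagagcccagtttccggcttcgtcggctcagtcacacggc
Kif23: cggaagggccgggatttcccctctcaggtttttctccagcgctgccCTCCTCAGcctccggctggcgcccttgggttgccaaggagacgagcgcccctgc
H2-D1: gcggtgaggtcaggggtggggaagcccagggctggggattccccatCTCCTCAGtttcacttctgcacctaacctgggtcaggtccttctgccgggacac
Radx: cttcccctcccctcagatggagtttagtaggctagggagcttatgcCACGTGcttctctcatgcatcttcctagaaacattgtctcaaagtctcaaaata
Tdrd9: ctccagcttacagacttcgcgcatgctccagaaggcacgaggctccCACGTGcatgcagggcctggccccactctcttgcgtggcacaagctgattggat
Cdk4: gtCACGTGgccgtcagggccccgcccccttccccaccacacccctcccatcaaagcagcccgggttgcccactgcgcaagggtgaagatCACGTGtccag
Cdk6: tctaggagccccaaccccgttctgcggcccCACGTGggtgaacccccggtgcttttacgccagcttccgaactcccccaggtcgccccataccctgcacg

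CNCCTCAG was present in 158 of 922 windows of lower genes, 17.1%, in 68 of 916 of higher genes, 7.42%, and in 1090 of 12813 of genes that were not called, 8.51%, while 7.94% of all 32851 windows held it. The E-box showed the opposite order. CACGTG was in 120 of 916 windows of higher genes, 13.1%, in 70 of 922 of lower genes, 7.59%, in 1182 of 12813 of genes not called, 9.23%, and in 7.15% of all windows. Lower genes had slightly more GC in these windows, with a median of 61.7% against 60% for higher genes and 59.7% for genes not called. In 4 classes of GC, with limits at the quartiles of all 32851 windows, the shares in the richest class with CNCCTCAG were 21.3% in lower, 6.58% in higher and 9.88% in uncalled genes, and with CACGTG 9.05%, 16.2% and 11.1%. The poorest class held only 62 windows of lower and 58 of higher genes. The shares there were 3.23%, 0.0% and 3.52% for CNCCTCAG, so that the motif was rare in each class of gene. For CACGTG they were 4.84%, 1.72% and 4.73%, the reverse of its order in all windows together, but on too few windows to compare. In the second poorest class they were 8.39%, 7.43% and 7.47% for CNCCTCAG and 4.9%, 9.46% and 7.12% for CACGTG. In lower genes matches of CNCCTCAG were most frequent within 50 bases of the start, 4.66 per 100 windows before it and 4.12 after it, against 1.69 and 1.58 in genes not called. The E-box of higher genes peaked in the 50 bases before the start with 5.46 per 100 windows, against 2.76. Of the 10 windows of the fallen meiotic genes outside the lists 5 held the E-box and 1 held CNCCTCAG. The SMAD palindrome was in 4 windows of lower genes, 0.434%, and in 4 of higher genes, 0.437%, too few to compare. It was in 34 of 12813 windows of genes not called, 0.265%, and in 0.213% of all windows. In all 182 windows held both of the first motifs, and 0 matches shared bases. These counts are a description of letters in fixed windows, with no test, and genes with several starts count once for each.

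**Figure D4:**
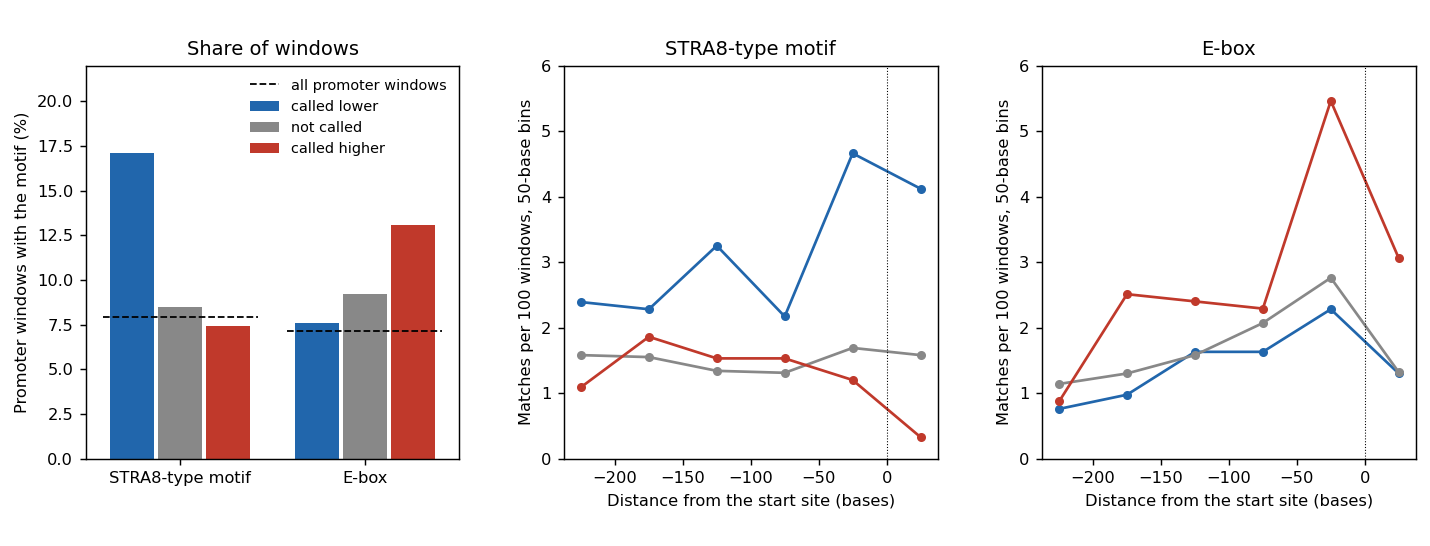
Left, the share of RefSeq promoter windows of genes outside the germ-cell-specific lists that hold CNCCTCAG (STRA8-type) or the E-box CACGTG, by class of gene, with all promoter windows as dashed lines; middle and right, matches per 100 windows in bins of 50 bases against the distance from the start site. Blue (lower genes) stands above for the first motif at 17.1% and red (higher genes) for the E-box at 13.1%, and both peaks are close to the start.

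Somatic cell markers were read as a check of the tissue. The counts of this and the next paragraph stand beside 6.71% of all genes called higher and 7.94% called lower. Sertoli cell markers, which define the testis, summed to 9.89 to 11.3 in control and 10.1 to 12.1 in DKO ovaries against at least 176 in testes, and 1 of 23, *Dmrt1*, was higher. The defining genes *Sox9*, *Amh* and *Dhh* differed by -0.09, 0.06 and 0.10 without passing, and *Amh* was well above background on 1 array of each ovary group. Pregranulosa cell markers, the supporting cells of the ovary, summed to 104 to 139 in control and 108 to 124 in DKO ovaries, with 1 of 22 higher, *Irx1*, and 2 lower, *Irx2* by 1.58 and *Msx1* by 0.89, and *Foxl2*, their defining factor, differed by 0.42 (adjusted p = 0.1, limma). Fetal Leydig cell markers summed to 22 to 26.4 and 24 to 25.6 against at least 141 in testes. Of 16 tested, *Pcsk6* and *Ptch1*, the Hedgehog receptor, were higher, and *Ptch1* was well above background on 2 of the 3 control arrays and lost its call without control ovary 1 or DKO ovary 2. Of the endothelial markers 2 of 20 were higher, *Erg* by 1.28 and *Vwf* by 1.11, while *Pecam1* differed by 0.24 without passing. Of 18 alternative settings *Erg* lost its call in 4 and *Vwf* in 6, for *Vwf* among them the slide as a block and that without control ovary 3.

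Other cells that could share the dissection were less even. Macrophage and leukocyte markers summed to 6.23 to 8.17 in control and 8.26 to 14.9 in DKO ovaries, with *Cd68* called (0.72), a median of 0.45 over 20 genes and differences of 0.57, 0.41 and 0.37, under 1.5-fold, for *Trem2*, *Aif1* and *C1qa*. The call of *Cd68* was lost without control ovary 3 or DKO ovary 1. Erythroid markers had 3 of 19 lower, the embryonic globin gene *Hbb-y* by 1.15 and *Tfrc*, the transferrin receptor gene, by 0.66 among them, and summed to 291 to 413 in control and 242 to 267 in DKO ovaries. The call of *Tfrc* was lost without control ovary 1, control ovary 2 or DKO ovary 1. Skeletal muscle markers summed to 17.8 to 92.3 in control and 15.2 to 20 in DKO ovaries. The upper end came from control ovary 3 alone, in which *Mylpf*, a fast muscle myosin light chain gene, was 2.31 against -1.39 and -1.18 in the other controls, and 1 of 28 genes was called. Mesonephros and Wolffian duct markers had 2 of 14 higher, *Lhx1* by 1.54 and *Emx1* by 1.02, with sums of 35.9 to 38.6 and 36.4 to 43.9. Adrenal and sympathetic markers had 4 of 14 higher, *Ddc*, *Elavl4*, *Phox2a* and *Th*, and 1 lower, *Slc18a1*, the call of *Ddc* was lost without control ovary 3 or DKO ovary 2, and *Th*, the defining enzyme, was well above background on 0 of 3 control and 1 of 3 DKO arrays. Their summed level, 4.01 to 4.7 in control and 3.04 to 4.64 in DKO ovaries, overlapped. Whether any of these shifts entered the differences above was not tested.

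**Figure D5:**
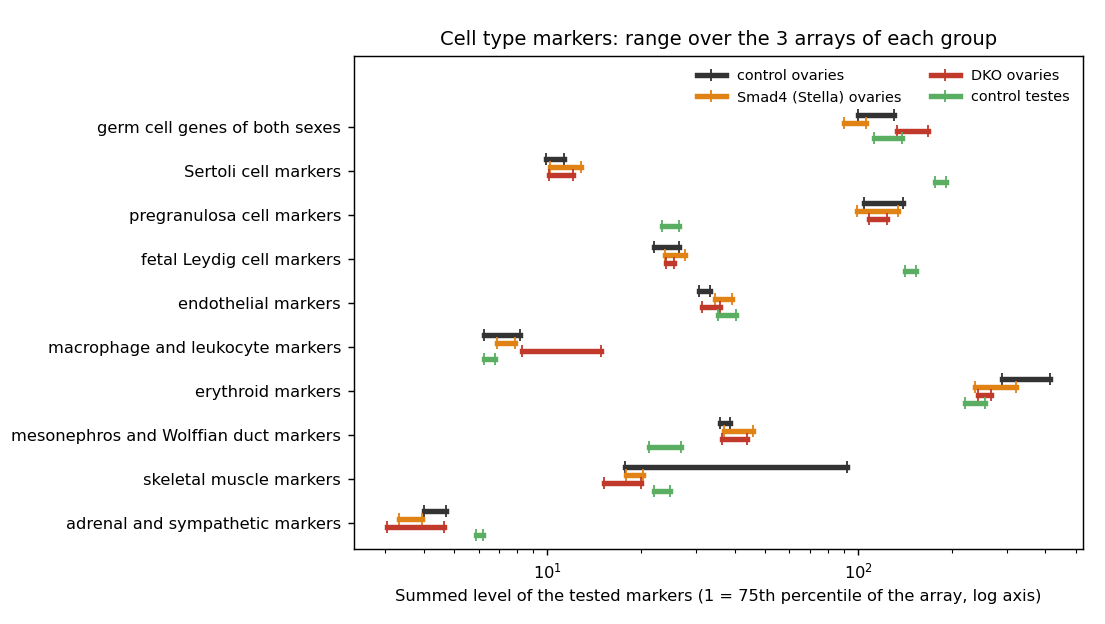
Range over the 3 arrays of each group of the summed level of the tested markers of each cell type, on a log axis where 1 is the 75th percentile of an array. The control and DKO ovary bars overlap for Sertoli (9.89 to 11.3 and 10.1 to 12.1), pregranulosa and Leydig cell markers, which separate both from the testes. The macrophage bars (6.23 to 8.17 in control and 8.26 to 14.9 in DKO ovaries) do not overlap. Nor do the erythroid bars (291 to 413 and 242 to 267) and those of germ cell genes of both sexes (100 to 130 and 133 to 168). The germ cell sum includes *Dppa3*, a bright gene that was called higher. The muscle bar of the controls is stretched by 1 array.

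The 3 DKO ovaries differed among themselves in how far the male genes rose. The median difference of the 373 male list genes from the control mean was 1.46, 1.13 and 0.82 in DKO ovaries 1, 2 and 3, whereas that of the 344 female list genes was -1.48, -1.55 and -1.39, and that of the 14 pluripotency genes outside the lists 0.66, 0.72 and 0.71. DKO ovary 3 was also the lowest DKO array for *Drc1*, *Phf11a*, *Lncenc1*, *Esrrb*, *Fetub* and each of the named bounds from *Khdc1b* to *Zim2*, but not for *Irx1*, *Radx*, *Dmrt1* or *Grhl2*. It was the only DKO array on slide 3, so that slide and embryo cannot be told apart here. DKO ovary 3 also had 198 outlier spots, against 84 and 78 on DKO ovaries 1 and 2. Its share of probes well above background was 60.38%, against 64.27% and 70.41%. Whether array quality bears on its smaller rises was not tested.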

How the data were processed

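Gonad RNA (E14.5) was hybridised to 1-colour Agilent arrays, and the authors deposited the scanner output of Agilent Feature Extraction 11.0.1.1, whose processed signal is an intensity after background subtraction and detrending within each array. The deposited table of the series holds the same intensity rounded to 3 significant digits, without scaling between arrays, so that brightness differences between arrays remain in it; it served as an alternative. Here, control and outlier spots were dropped, repeated spots were averaged by probe, log2 of the signal was set against each array's 75th percentile over the non-control spots, and 27309 of 41174 probes that were well above background on all 3 arrays of any group were kept and averaged per gene, giving 18665 genes. Leaving out outlier spots left 30 genes with a missing level on at least 1 of the 6 arrays, among them *Hbb-y* on control ovary 2. Probes were named by RefSeq accession (27050), symbol (4743) or else the name on the array (9381). A fit of 4 group means over the 12 arrays was made with limma 3.58.1 in R 4.3.3, which shares 1 estimate of the spread. Promoter windows came from RefSeq, GRCm38.p6, and probe positions from the arrays' annotation, mm9. On simulated data of 18633 genes for DKO against control ovaries the fit recovered 74% of genes changed by 2-fold and 96% of those changed by 4-fold, with 14 false calls. The simulation changed only 200 genes and drew independent noise for each gene, without effects of slide or litter. Its false calls are therefore no error rate for the real calls.

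The members and the 28 gene lists were chosen with earlier results of these data known. Genes named are the 12 largest rises and falls outside the study's lists, measured on every array and not overlapping, less those not reported here, which were not replaced, the 5 largest bounds in each direction, up to 4 members of each list outside and 2 inside the study's lists with the smallest p, *Stra8*, *Smad4*, *Dppa3* and the 3 largest changes of each study list; other members are named to complete a count or to show genes that did not pass, after their values were seen. Genes without a name in the tables used here were counted but not listed, and some named genes are not reported here. As alternatives the arrays were quantile normalized, the deposited table or normexp-corrected signals (offset 50) were used, the brightest probe, other filters or a 2-fold threshold were taken, the fit was limited to the 6 arrays or to slide 2, slide or replicate number entered as a block, the methods' t-test was run, and each array was left out in turn.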

Additional observations from a re-analysis of the deposited data

How the results depend on the processing

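Counts of higher and lower genes, over all genes and then outside the study's lists, were 1253 and 1482, and 1026 and 1184. They fell to 548 and 438, and 374 and 236, in the deposited table without scaling, where the median difference of all genes moved to 0.188, and to 442 and 459, and 334 and 316, with normexp background correction, where it moved to 0.259. A 2-fold threshold gave 602 and 746, and 412 and 495. Slide 2 alone, with 2 arrays a group, gave 530 and 643, and 364 and 415, and the methods' t-test after Benjamini-Hochberg adjustment 355 and 725, and 285 and 501. With only the 6 arrays in the fit 677 genes outside the lists were higher. Leaving out each array in turn gave 1064 to 1339 and 1344 to 1666 over all genes, and 858 to 1143 and 1054 to 1369 outside the lists. Apart from the fewer arrays or the stricter threshold of some settings, the cause was not tested. Quantile normalization, the brightest probe, the filters and the slide block left each of these 4 counts within 1.5 times.

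The replicate numbers did not pair the arrays (correlation of deviations between the same numbers 0.09, 0.154 and -0.02), and with the replicate block the counts were 1231 and 1451, and 1009 and 1155. Differences of named genes that reversed were those of *Npm2* (0.16), *Ap1m2* (0.045) and *Fos* (0.10) with normexp correction, and of *Erap1* (-0.0448) and *Trp63* (-0.37) with no filter on dim probes. Of the 33 genes named for the largest changes and bounds 10 lost their call with normexp correction. Signal over background limits the size of a change for 56 higher and 83 lower genes outside the lists, for which 1 of the groups was undetected.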

Other observations

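In some gene families, a few of whose members are in the lists above, the called genes all lay on 1 side. The families were picked after their values were seen and have no test. Their counts stand beside 6.71% of all genes tested called higher and 7.94% called lower. All 4 Cpeb genes, which encode proteins that bind cytoplasmic polyadenylation elements and regulate translation, were lower, *Cpeb1* by 0.69, *Cpeb2* by 2.06, *Cpeb3* by 1.89 and *Cpeb4* by 1.18. Of 17 Krüppel-like factor genes 6 were higher and 0 lower, with a median of 0.37, and beside *Klf2*, *Klf4* and *Klf5* these were *Klf8* (1.19), *Klf15* (0.75) and *Klf16* (0.75). Of 7 Senp genes, which encode proteases that remove SUMO, 4 were lower and 0 called higher, while *Senp3* differed by 0.52 (adjusted p = 0.0422, limma), under 1.5-fold. Of 5 Magea genes, cancer-testis genes of the X chromosome with near-identical copies that a probe may not separate, 4 were higher, among them *Magea1* (2.21), *Magea3* (2.09) and *Magea5* (1.90).

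Outside the study's lists 55 of 646 genes on the X chromosome were higher, 8.51%, and 40 were lower, 6.19%, against 963 (5.63%) and 1136 (6.65%) of 17094 autosomal genes. Among autosomes the share of higher genes ran from 3.56% on chromosome 16 to 8.49% on chromosome 17 and that of lower genes from 4.48% on chromosome 19 to 8.78% on chromosome 12, so that the X share of higher genes lay just above the autosomal range. Beside *Radx* the X-linked rises included *Esx1* (2.57), a homeobox gene of placenta and germ cells, and *Usp26* (2.48), a deubiquitinase gene of testis, and the X-linked falls *Rhox13* (-2.49), *Cited1* (-2.34) and *Ap1s2* (-2.28).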
